A study of Mus musculus with 28 samples.

Results

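The 8 libraries described here come from mouse macrophages grown from bone marrow that had engulfed dying conventional CD4 T cells, called Tconv cells below (Tconv-phagocytic macrophages). They were chosen by label alone: 4 libraries of cells kept with IFN-γ and 4 of cells kept with IL-10, out of 28 libraries in 7 groups. Both groups were wild type, received their cytokine at 50 ng/mL for 48 h, and were co-cultured with T cells killed with ATP or NAD and stained with an antibody against CD4 that carried the dye BV421 or Ax647. Macrophages that carried the dye were sorted and sequenced as poly(A) RNA. Each cytokine group holds 2 libraries of each dye, and values of single libraries are given below in the order BV421 replicate 1, BV421 replicate 2, Ax647 replicate 1 and Ax647 replicate 2. Macrophages under the same cytokines labelled as having taken up no T cell (non-phagocytic, 8 libraries) are also used. So are those that had taken up an apoptotic regulatory T cell (Treg-phagocytic, 8 libraries). Both serve only to show where the Tconv-phagocytic cells differ. The labels do not say whether the libraries of a group came from separate cultures or animals, so the p-values measure the spread between these samples.

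IFN-γ binds a receptor made of Ifngr1 and Ifngr2, acts through the kinases JAK1 and JAK2, and activates transcription at a palindromic DNA element, the gamma-activated site. One of its targets is IRF1, which with related factors binds the interferon-stimulated response element. The response includes antigen presentation, guanylate-binding proteins and T cell chemokines. IL-10 binds Il10ra and Il10rb, acts through STAT3, and is known for restraining inflammatory cytokines and for supporting the uptake and clearance of dead cells. Clearance of an apoptotic cell (efferocytosis) needs bridging proteins and receptors for phosphatidylserine, then lysosomal digestion, then export of the cholesterol that the eaten cell brings.

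The comparison is of one cytokine with the other, without an untreated group of the same uptake class. A transcript that is higher under IFN-γ is equally one that is lower under IL-10, and which cytokine moved it cannot be told apart here. These are bulk samples, in which fewer cells of a type and less RNA per cell cannot be told apart.

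The deposited unit is TPM, the share of a library's transcripts that belongs to a gene, per length and scaled to a fixed total. Fold changes are differences of log2(scaled TPM + 1), IFN-γ minus IL-10, with the standard error from limma, and they understate the change of low genes. A gene was called at an adjusted p under 0.05 (limma, Benjamini-Hochberg over all genes tested). Of 12133 genes tested, 6812 (56.1%) were called, 3458 of them higher under IFN-γ (28.5%) and 3354 lower (27.6%). The deposited values of the groups did not overlap for 6735 genes (55.5%). Most calls were of modest size, with a median absolute log2 fold change of 0.64, and 1671 reached 1 or more, of which 1100 were higher and 571 lower. The share of a list that was called is therefore to be read against a background in which most genes differ.

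The 4 promoters shown here belong to genes with large differences. Gbp2, a guanylate-binding protein, and the long non-coding RNA Zmiz1os1 were far higher under IFN-γ. The acute-phase protein Saa3 and the cytokine-signalling inhibitor Socs3 were far lower. The genes searched were the 10 largest rises, the 10 largest falls and the anchor genes of the lists, in order of fold change. These 4 are the first 2 of each direction whose RefSeq window holds a match to either interferon element, so that each sequence shows one. Socs3 was searched as an anchor and was not among the 10 largest falls. The windows come from RefSeq on build GRCm38.p6 and are the 250 bases before the annotated start, 5′ to 3′ on the strand of the gene. Gbp2 lies on the plus strand at chr3:142620413-142620662, Zmiz1os1 on the minus strand at chr14:25381915-25382164, Saa3 on the minus strand at chr7:46715677-46715926 and Socs3 on the minus strand at chr11:117969367-117969616. Capitals mark a match to the gamma-activated site, TTCNNNGAA, or to the core of the interferon-stimulated response element, which is a GAAA block, any 2 bases and a second GAAA block, on either strand.
Gbp2: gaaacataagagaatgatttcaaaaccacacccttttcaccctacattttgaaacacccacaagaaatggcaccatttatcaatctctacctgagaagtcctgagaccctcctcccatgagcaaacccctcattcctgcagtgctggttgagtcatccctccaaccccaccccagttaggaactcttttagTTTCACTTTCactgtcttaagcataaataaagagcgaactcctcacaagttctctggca
Zmiz1os1: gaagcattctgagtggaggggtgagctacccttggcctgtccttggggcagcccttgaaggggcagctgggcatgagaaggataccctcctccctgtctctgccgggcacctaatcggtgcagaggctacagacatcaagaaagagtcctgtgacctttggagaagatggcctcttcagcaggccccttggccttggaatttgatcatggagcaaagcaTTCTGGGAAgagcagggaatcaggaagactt
Saa3: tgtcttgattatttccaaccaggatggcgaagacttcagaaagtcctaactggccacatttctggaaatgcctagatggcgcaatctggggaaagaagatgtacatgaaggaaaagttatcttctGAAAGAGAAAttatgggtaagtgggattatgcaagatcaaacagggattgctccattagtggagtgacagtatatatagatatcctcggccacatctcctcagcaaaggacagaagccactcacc
Socs3: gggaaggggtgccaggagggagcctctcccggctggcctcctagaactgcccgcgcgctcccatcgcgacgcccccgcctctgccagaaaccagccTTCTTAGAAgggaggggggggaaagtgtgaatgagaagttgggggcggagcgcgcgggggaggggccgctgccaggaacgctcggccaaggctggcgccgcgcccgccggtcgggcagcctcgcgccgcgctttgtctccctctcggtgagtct

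In the Gbp2 window the match is to the response element core and begins 59 bases before the start. That of Zmiz1os1 is a gamma-activated site 31 bases before the start, in 1 of 5 windows listed for the gene. The Saa3 window has a response element core 125 bases before the start and the Socs3 window a gamma-activated site 154 bases before it, so that matches of both kinds stood before genes of both directions. Windows of 300 bases (250 before to 50 after the start) were searched for genes with 1 window. Over all 22862 such windows in the RefSeq table, 8.49% held a gamma-activated site and 3.58% a response element core. Among tested genes called higher by at least 2 on the log2 scale, 19.0% of 84 windows held a gamma-activated site and 8.33% a response element core. Among those called lower by at least 2, the shares were 2.56% and 5.13% of 39 windows. Over all called genes the gamma-activated site was as frequent in windows of genes called higher (6.77% of 1978) as in those called lower (6.41% of 2058), and the response element core stood in 5.31% and 2.77%. Each window shown holds 1 match. A match is a run of letters and not a bound site.

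The signalling machinery of IFN-γ was itself among the transcripts that differed. Irf1, a transcription factor raised early by IFN-γ, was at 199.5, 295, 245 and 236 TPM under IFN-γ and 67.5, 66.8, 70.2 and 68.6 TPM under IL-10. Every IFN-γ library lay above every IL-10 library, and the log2 fold change was 1.98 ± 0.095 (limma adjusted p = 2.15e-07). The receptor chain Ifngr1 went the other way, at 92.3, 86.05, 84.3 and 90.6 TPM under IFN-γ and 172, 172, 179 and 170.3 TPM under IL-10. Its groups did not overlap and it was lower by 0.79 under IFN-γ (limma adjusted p = 1.13e-06). Socs1, the inhibitor that shuts off JAK kinases after IFN-γ, was at 4.78 ± 1.04 TPM under IFN-γ and 1.07 ± 0.13 TPM under IL-10 (SD, n = 4), a difference of 1.58 ± 0.16 on the log2 scale. Of the 14 receptor, kinase and IRF genes listed, 7 were called higher and 3 lower, with a median of 0.20. Over all genes 28.5% were called higher and 27.6% lower. Without scaling this list of 14 had 6 in each direction.

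The genes of the IL-10 receptor, its signalling and the regulators it induces were mostly higher under IL-10: 9 of 14 were called lower under IFN-γ and 1 higher, with a median of -0.36. Stat3 itself, the factor of this pathway, was at 67.7, 80.2, 80.2 and 88.6 TPM under IFN-γ and 90.8, 95.8, 90.8 and 101 TPM under IL-10, a difference of -0.086 ± 0.076 that was not called (limma adjusted p = 0.364); without scaling it was -0.26 and called. Socs3, the inhibitor that STAT3 induces, was at 17.9, 13.6, 19.9 and 19.9 TPM under IFN-γ and 164, 165, 162 and 171 TPM under IL-10. The groups stood far apart, with a log2 fold change of -2.99 ± 0.11 (limma adjusted p = 4.02e-08), and the IFN-γ library BV421 replicate 2 was the lowest. Il4ra, the receptor chain for IL-4 and IL-13, was at 41.5, 45.3, 44.2 and 39.2 TPM under IFN-γ and 223, 214, 208 and 227 TPM under IL-10, a difference of -2.16 ± 0.056 with no overlap (limma adjusted p = 9.15e-09). Bcl3 (an NF-κB inhibitor of the nucleus), Sbno2 (a corepressor) and Nfil3 (a basic leucine zipper repressor) are known STAT3 targets in IL-10-treated macrophages. Their log2 fold changes were -1.07 ± 0.092, -1.07 ± 0.069 and -1.07 ± 0.11, and the limma adjusted p-values were 8.84e-06, 1.38e-06 and 2.68e-05.

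Guanylate-binding proteins and immunity-related GTPases, which assemble on the vacuoles of intracellular pathogens, were higher under IFN-γ almost without exception. All 10 tested guanylate-binding proteins were called higher (median 2.46), and of 9 immunity-related GTPases 8 were called higher and none lower (median 1.81). Gbp2 was at 153, 246, 204 and 197 TPM under IFN-γ and 7.75, 9.54, 9.63 and 8.31 TPM under IL-10, a difference of 4.51 ± 0.13 (limma adjusted p = 1.39e-08). Gbp4 was at 53.9, 101, 74.9 and 81.6 TPM under IFN-γ and 1.37, 2.34, 2.25 and 1.14 TPM under IL-10. Its difference was 4.96 ± 0.20 (limma adjusted p = 8.64e-08), and in both genes the IFN-γ library BV421 replicate 1 was the lowest of the 4 and still far above IL-10. Gbp5, which helps to activate inflammasomes, differed by 1.75 ± 0.15. Among the GTPases, Iigp1 differed by 2.85 ± 0.16 and Irgm1, a regulatory member, by 1.81 ± 0.1. The effector GTPases Igtp and Ifi47 differed by 1.81 ± 0.12 and 1.64 ± 0.081 (limma adjusted p = 1.66e-06 and 2.51e-07). Irgm2 was the exception, at 5.59, 5.73, 7.93 and 6.60 TPM under IFN-γ and 5.96, 6.51, 6.82 and 5.47 TPM under IL-10, with overlapping groups and a difference of 0.20 ± 0.13 (limma adjusted p = 0.22).

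**Figure D1:**
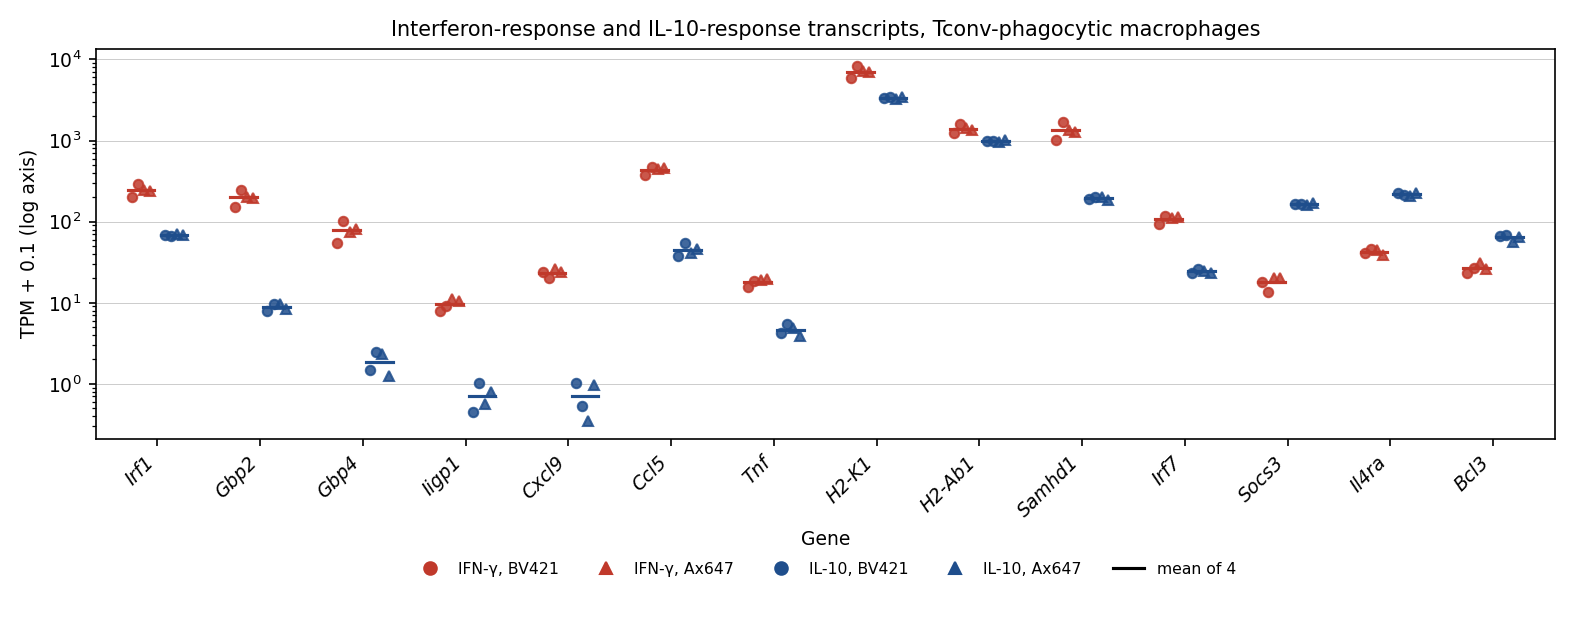
TPM (plus 0.1, log axis) of interferon-response genes and IL-10-response genes in the 8 Tconv-phagocytic libraries, IFN-γ in red and IL-10 in blue, circles for BV421, triangles for Ax647 and a bar at the mean of 4. The groups do not overlap for any gene drawn, and Socs3, Il4ra and Bcl3 lie higher under IL-10.

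Most genes of antigen presentation by MHC class I were higher under IFN-γ. Of 24 class I and immunoproteasome genes, 17 were called higher under IFN-γ and 4 lower (median 0.77). The heavy chain H2-K1 differed by 1.24 ± 0.075, its light chain B2m by 1.03 ± 0.031, the peptide transporter subunit Tap1 by 0.87 ± 0.051, the immunoproteasome subunit Psmb9 by 1.20 ± 0.086 and the class I transactivator Nlrc5 by 1.45 ± 0.12 on the log2 scale. Their limma adjusted p-values were 8.84e-07, 1.84e-08, 7.47e-07, 2.79e-06 and 7.53e-06. With a correction for GC content and length, chosen after seeing the data, B2m was at 0.44 and still called. The folding chaperone Canx was lower, by 0.75 (limma adjusted p = 2.41e-05).

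Of 15 class II genes, 9 were called higher and 2 lower (median 0.53). The chains H2-Aa and H2-Ab1 differed by 0.53 ± 0.053 and 0.67 ± 0.064, the peptide editor subunit H2-DMa by 1.28 ± 0.059 and the subunit of its inhibitor, H2-Oa, by 2.43 ± 0.21, with limma adjusted p-values of 2.39e-05, 1.77e-05, 1.76e-07 and 1.00e-05. Without scaling H2-Aa was at 0.35. Ciita, the master activator of class II genes, differed by only 0.31 ± 0.11 (limma adjusted p = 0.0328). Its call was lost without scaling (limma adjusted p = 0.25) and without any single one of the IFN-γ libraries BV421 replicate 2 and Ax647 replicate 2 or of the 4 IL-10 libraries (0.0528 to 0.0982). It was also lost with a replicate block (limma adjusted p = 0.06), in a model of all 28 libraries (0.136), without a filter (0.069) and in either dye alone, and the difference was 0.52 with the correction for GC content and length. The invariant chain Cd74 was at 2434, 2782, 2615 and 2659.7 TPM under IFN-γ and 3342, 3279.7, 3152 and 3318 TPM under IL-10. These groups did not overlap in the deposited values, and Cd74 was lower by 0.14 under IFN-γ (limma adjusted p = 0.0113), a call lost without the IFN-γ library Ax647 replicate 1 (limma adjusted p = 0.0571). Its difference was -0.32 without scaling and -0.23 with the correction for GC content and length.

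Chemokines were found on both sides. Cxcl9, a CXCR3 ligand that draws activated T cells and a classic IFN-γ target, was at 23.9, 19.9, 25.7 and 24.1 TPM under IFN-γ and 0.92, 0.43, 0.25 and 0.87 TPM under IL-10. Every IL-10 library was below 1 TPM, so Cxcl9 reached the filter of 1 TPM in 4 libraries through the IFN-γ group alone. A higher value under IFN-γ was therefore fixed in advance. The difference was 4.05 ± 0.16 (limma adjusted p = 7.77e-08). Ccl5, a chemokine for T cells and monocytes, was at 375, 469, 448 and 457 TPM under IFN-γ and 38.2, 54.8, 41.00 and 46.5 TPM under IL-10, a difference of 3.43 ± 0.11 (limma adjusted p = 2.28e-08), and Cxcl10, another CXCR3 ligand, differed by 1.58 ± 0.21 (limma adjusted p = 1.56e-04). The platelet-type chemokines lay on the other side. Ppbp was at 0.36, 0, 0.92 and 0.31 TPM under IFN-γ and 43.02, 33.2, 36.9 and 40.04 TPM under IL-10, so that one IFN-γ library was listed at 0, with a difference of -4.74 ± 0.20 (limma adjusted p = 8.94e-08), and Pf4 differed by -2.90 ± 0.08 (limma adjusted p = 1.19e-08). Ppbp reached the filter through the IL-10 group alone, so its lower value under IFN-γ was likewise fixed in advance. Over the 15 chemokine ligands tested of 23 listed, 6 were called in each direction and the median was 0.03, or -0.09 without scaling.

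Inflammatory cytokines did not move as a block: of 17 tested, 8 were called higher under IFN-γ and 4 lower (median 0.33). Tnf was at 15.4, 18.3, 18.8 and 19.5 TPM under IFN-γ and 4.16, 5.30, 4.75 and 3.84 TPM under IL-10, higher in every IFN-γ library, with a difference of 1.94 ± 0.12 (limma adjusted p = 9.51e-07). Il27, an IL-12 family subunit, and Il15, which sustains NK and memory T cells, differed by 2.14 ± 0.22 and 1.63 ± 0.13 (limma adjusted p = 3.23e-05 and 6.50e-06). Il18bp, the secreted decoy that binds IL-18, and the growth factor Igf1 differed by 0.98 ± 0.075 and 0.57 ± 0.042 (limma adjusted p = 4.10e-06 and 3.19e-06). Igf1 was at 0.32 with the correction for GC content and length. Il1b was lower, by 1.79, as was Csf1, the macrophage growth factor, by 1.82 (limma adjusted p = 4.86e-06 and 1.74e-05). The transcript of Il10 itself was at 1.97, 1.31, 1.21 and 2.66 TPM under IFN-γ and 1.96, 1.20, 1.55 and 1.51 TPM under IL-10, with overlapping groups and a difference of 0.21 ± 0.20 (limma adjusted p = 0.396). Il6 and Il12b did not reach the filter of 1 TPM in 4 libraries, nor did Nos2 and Arg1, the enzymes that mark classical and alternative activation in culture. The itaconate enzyme Acod1 and Ass1, which rebuilds arginine from citrulline, were tested and differed by 1.10 ± 0.18 and 2.20 ± 0.15 (limma adjusted p = 5.42e-04 and 1.69e-06).

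Type I interferon antiviral genes, many of which also respond to IFN-γ, were higher in 29 of 33 cases and lower in 1 (median 1.30). Samhd1, which depletes nucleotides for viral replication, was at 1014, 1694, 1354 and 1276 TPM under IFN-γ and 189, 199, 201 and 187 TPM under IL-10, a difference of 2.93 ± 0.12 (limma adjusted p = 9.12e-08), with the 4 IFN-γ libraries spread more widely than the IL-10 libraries. Usp18, the protease that removes ISG15, differed by 2.55 ± 0.15, Ifit3 by 2.41 ± 0.089, Irf7 by 2.29 ± 0.076, Ifit2 by 1.99 ± 0.094, the tether Bst2 by 1.30 ± 0.036 and Isg15 by 1.24 ± 0.13 on the log2 scale. Their limma adjusted p-values were 9.38e-07, 4.65e-08, 2.90e-08, 1.95e-07, 1.20e-08 and 3.22e-05. Zbp1, a sensor of left-handed nucleic acid that can start necroptosis, differed by 1.62 ± 0.077 (limma adjusted p = 1.95e-07). The cytosolic DNA sensor family HIN-200, a list chosen after values were seen, had 8 of 9 members called higher and 1 lower (median 1.46). Its member Mndal was at 263, 357, 305 and 331 TPM under IFN-γ and 30.7, 36.8, 33.8 and 30.3 TPM under IL-10, a difference of 3.38 ± 0.094 (limma adjusted p = 1.20e-08), and Aim2, the inflammasome sensor of the family, differed by 1.58 ± 0.15 (limma adjusted p = 1.85e-05). These genes lie in a cluster of near copies, so reads may be split among them.

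Checkpoint molecules were called in both directions, 6 higher and 6 lower of 19, near the shares over all genes (28.5% and 27.6%). Cd274, which encodes PD-L1, differed by 0.70 ± 0.056. Vsir, which encodes VISTA, and Nectin2, a TIGIT ligand, were lower by 0.81 and 1.35. Their limma adjusted p-values were 5.99e-06, 2.36e-06 and 4.14e-06. The costimulatory ligands of T cells Cd86 and Cd40 were not called, with differences of -0.025 ± 0.11 and 0.098 ± 0.15 (limma adjusted p = 0.859 and 0.603). Among other surface proteins, Ly6a, an interferon-inducible surface protein, was at 89.5, 132, 116 and 111 TPM under IFN-γ and 8.25, 8.51, 9.65 and 10.1 TPM under IL-10, a difference of 3.64 ± 0.11 (limma adjusted p = 2.18e-08), and Itgal, the α chain of the integrin LFA-1, differed by 1.62 ± 0.08 (limma adjusted p = 2.48e-07).

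The uptake machinery was predominantly higher under IL-10. Of 30 tested receptors, bridging proteins and engulfment genes for apoptotic cells, 20 were called lower under IFN-γ and 3 higher (median -0.50). Bridging proteins and opsonins were among those called. Gas6 and Pros1, which link phosphatidylserine to MERTK and AXL, were lower by 1.05 and 1.54, and the C1q chains C1qa, C1qb and C1qc by 1.42, 1.04 and 1.25, with limma adjusted p-values of 1.18e-06, 2.22e-06, 7.38e-08, 9.15e-09 and 2.90e-08. Mertk, the receptor kinase that Gas6 and Pros1 engage, was at 19.6, 27.97, 25.2 and 25.8 TPM under IFN-γ and 28.6, 26.7, 25.7 and 27.5 TPM under IL-10, with overlapping groups and a difference of 0.028 ± 0.10 (limma adjusted p = 0.831). Axl was at 34.8, 38.2, 39.4 and 44.8 TPM under IFN-γ and 53.8, 57.3, 65.3 and 55.2 TPM under IL-10, lower by 0.38 (limma adjusted p = 0.00449). With the correction for GC content and length, that call was lost (limma adjusted p = 0.0941).

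Several other uptake genes were lower as well. Lrp1, a receptor for calreticulin and many other ligands, and Itgb5, the β chain of an integrin that binds MFG-E8, were lower by 0.89 and 1.33 (limma adjusted p = 9.97e-07 and 1.74e-06). Tgm2, a transglutaminase that stabilises the phagocytic portal, was lower by 1.30, and Ucp2, a mitochondrial carrier that sustains continued engulfment, by 1.17 (limma adjusted p = 4.87e-07 and 4.15e-08). Thbs1, which bridges apoptotic cells to CD36, was at 57.5, 53.2, 63.05 and 56.3 TPM under IFN-γ and 489, 480.0, 487 and 491 TPM under IL-10. Its groups were far apart, with a difference of -2.89 ± 0.05 (limma adjusted p = 1.44e-09). The 3 called higher under IFN-γ included Cd36 (0.50 ± 0.061) and Anxa1 (1.08 ± 0.051), an annexin that binds phosphatidylserine, with limma adjusted p-values of 8.90e-05 and 1.94e-07. With the correction for GC content and length Cd36 was at 0.22, and without scaling at 0.32.

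Among 14 scavenger and pattern receptors, 10 were called lower and 3 higher (median -0.76). Cd5l, a secreted scavenger-family protein of macrophages, was at 226, 200.3, 209.6 and 208 TPM under IFN-γ and 1324, 1249, 1278 and 1273 TPM under IL-10, a difference of -2.42 ± 0.047 with no overlap (limma adjusted p = 1.63e-09). The mannose receptor Mrc1 was lower by 1.72 and the scavenger receptor Marco higher by 1.76 (limma adjusted p = 3.19e-08 and 3.59e-05). Msr1, the class A scavenger receptor, was lower by 1.12 (limma adjusted p = 9.96e-06). The Fc receptors for IgG belong to this comparison because Fcgr1 is widely used as an IFN-γ-induced marker. Here Fcgr1 was at 58.5, 49.2, 54.1 and 42.5 TPM under IFN-γ and 188, 165, 173 and 182 TPM under IL-10, lower under IFN-γ in every library, by -1.61 ± 0.096 (limma adjusted p = 8.09e-07). The inhibitory receptor Fcgr2b was lower by 1.11 and the activating Fcgr3 and Fcgr4 by 0.95 and 0.52, while their shared signalling chain Fcer1g was higher by 0.44 (limma adjusted p = 8.19e-08, 3.20e-07, 6.17e-05 and 4.63e-05). With that correction Fcgr4 was at -0.79 and Fcer1g at 0.12, and without scaling Fcer1g was at 0.26.

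Lipid export genes were also more often lower than higher under IFN-γ. Of 25 genes of the LXR and PPAR nuclear receptors and of cholesterol efflux, 14 were called lower and 6 higher (median -0.30), and without scaling 16 lower and 2 higher. Apoe, the main lipid carrier secreted by macrophages, was at 12387, 11764, 12387 and 12259 TPM under IFN-γ and 34657, 34829, 34601 and 34957 TPM under IL-10, the largest amounts of any transcript named here. It was lower by 1.33 under IFN-γ (limma adjusted p = 2.45e-09), with little spread within each group. The cholesterol exporter Abca1 was lower by 1.95, the phospholipid transfer protein Pltp by 1.63 and Npc1, which moves cholesterol out of lysosomes, by 0.79, but Npc2, its lumenal partner, was higher by 0.75 (limma adjusted p = 2.50e-07, 9.15e-09, 4.39e-07 and 7.25e-08). Lpl, the secreted lipoprotein lipase, was also higher, by 0.72 (limma adjusted p = 1.10e-06).

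Most lysosomal genes lay on the same side. Of 49 lysosomal hydrolases, membrane proteins and regulators, 37 were called lower under IFN-γ and 6 higher (median -0.41), or 42 and 2 without scaling. Ctsb, a cysteine protease, was at 6626, 5965, 6263 and 6296 TPM under IFN-γ and 14458, 13866, 14130.0 and 14103 TPM under IL-10, a difference of -0.99 ± 0.039 (limma adjusted p = 6.75e-08). Ctsc, which activates serine proteases, the asparaginyl protease Lgmn and the glycogen hydrolase Gaa were lower by 1.66, 0.99 and 1.35 (limma adjusted p = 1.36e-07, 6.47e-08 and 4.63e-07). The membrane protein Lamp1 and the aspartyl protease Ctsd were lower by 0.34 and 0.59 (limma adjusted p = 5.83e-06 and 4.47e-06), and Lamp1 was at -0.51 without scaling. Tfeb, the transcription factor that drives lysosomal genes, and its upstream calcium channel Mcoln1 were instead higher, by 0.84 and 1.03 (limma adjusted p = 2.21e-05 and 8.18e-05).

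**Figure D2:**
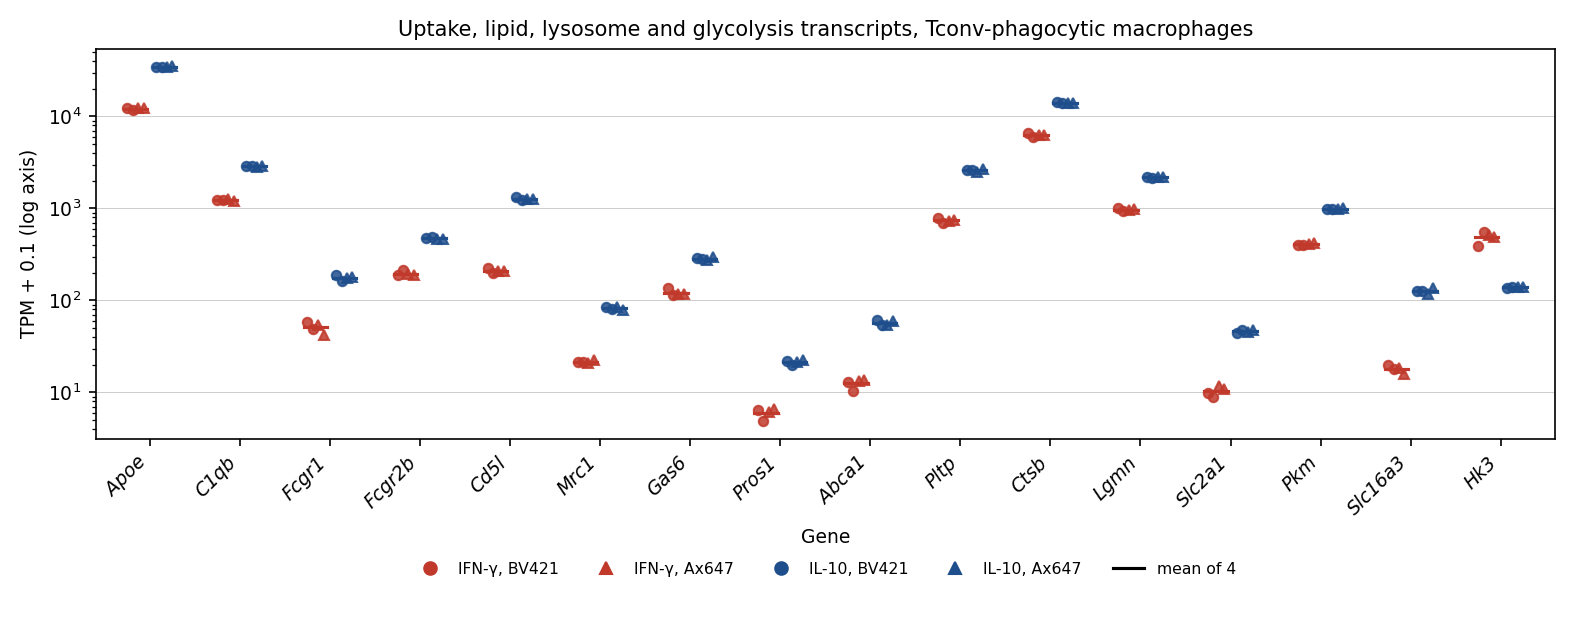
TPM (plus 0.1, log axis) of uptake, lipid, lysosome and glycolysis genes in the 8 Tconv-phagocytic libraries, IFN-γ in red and IL-10 in blue, circles for BV421, triangles for Ax647 and a bar at the mean of 4. Every gene drawn lies higher under IL-10 without overlap, except Hk3, which lies higher under IFN-γ.

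Glycolysis genes were higher under IL-10: of 18 tested, 15 were called lower under IFN-γ and 1 higher (median -1.08). Slc16a3, the exporter of lactate, was at 19.6, 17.9, 18.6 and 15.8 TPM under IFN-γ and 125, 128, 116 and 136 TPM under IL-10, a difference of -2.58 ± 0.081 (limma adjusted p = 2.18e-08). The glucose transporter Slc2a1, the phosphofructokinase Pfkl, the pyruvate kinase Pkm and the lactate dehydrogenase Ldha were lower by 1.90, 2.34, 1.10 and 1.07 (limma adjusted p = 1.73e-07, 7.66e-06, 1.42e-08 and 2.90e-08). The inducible hexokinase Hk2 was lower by 1.67 (limma adjusted p = 4.92e-07). The single gene called higher was Hk3, the hexokinase of myeloid cells, at 395, 552, 515 and 490.4 TPM under IFN-γ and 138, 141, 141 and 139 TPM under IL-10, a difference of 1.96 ± 0.083 (limma adjusted p = 9.96e-08). Hif1a, the oxygen-sensitive factor that drives many of these genes, was lower by 0.94, as was the haem oxygenase Hmox1, by 1.75 (limma adjusted p = 1.04e-05 and 2.05e-08).

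Surface sensors and macrophage identity genes were also mostly lower under IFN-γ. Of 15 Toll-like receptor genes 11 were called lower and 3 higher (median -0.82), with Tlr2 and Tlr4, which sense bacterial lipoproteins and endotoxin, lower by 1.67 and 1.45, and the Tlr4-like Cd180 higher by 0.92 (limma adjusted p = 7.15e-07, 1.26e-06 and 8.88e-06). The endosomal nucleic acid receptors Tlr7 and Tlr9 and the shared adaptor Myd88 were lower by 0.53, 0.82 and 1.24 (limma adjusted p = 0.00415, 1.16e-05 and 6.26e-05). The pyrin gene Mefv was lower by 1.76 (limma adjusted p = 5.33e-07). The inflammasome list was called in both directions, 4 of 16 higher and 5 lower, near the shares over all genes (28.5% and 27.6%). The sensor Nlrp3 was lower by 0.58, and the protease Casp1 and the pore protein Gsdmd were higher by 0.51 and 0.47 (limma adjusted p = 0.00432, 0.00128 and 2.23e-05). With the correction for GC content and length Casp1 was at 0.091 and not called, and without scaling Casp1 and Gsdmd were at 0.34 and 0.29. Of 6 NADPH oxidase subunits 2 were called higher and 1 lower, where 56.1% of all genes were called. The cytosolic organiser Ncf1 was higher by 0.58 (limma adjusted p = 1.14e-05). Of 18 complement genes, 6 were called higher and 9 lower. The anaphylatoxin receptor C5ar1 was lower by 2.07, and the alternative-pathway factors Cfb and C3 higher by 2.10 and 0.97 (limma adjusted p = 4.41e-06, 1.97e-05 and 5.06e-05). The C3a receptor C3ar1 was lower by 1.32 (limma adjusted p = 7.05e-07).

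Of 19 macrophage identity genes, 13 were called lower and 4 higher (median -0.50). The CSF1 receptor Csf1r, the monocyte chemokine receptor Ccr2 and the complement-receptor chain Itgam were lower by 0.89, 2.20 and 1.38, and Aif1, which encodes the actin-binding marker IBA1, was higher by 1.18 (limma adjusted p = 3.72e-06, 1.55e-06, 3.49e-08 and 5.10e-06). The F4/80 gene Adgre1 and the lineage factor Spi1 were lower by 0.33 and 0.31 (limma adjusted p = 8.47e-04 and 8.92e-04), and without scaling they were at -0.50 and -0.49. The summed TPM of the defining macrophage markers nevertheless overlapped between the groups, at 19150 to 21796 under IFN-γ and 19765 to 19999 under IL-10.

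**Figure D3:**
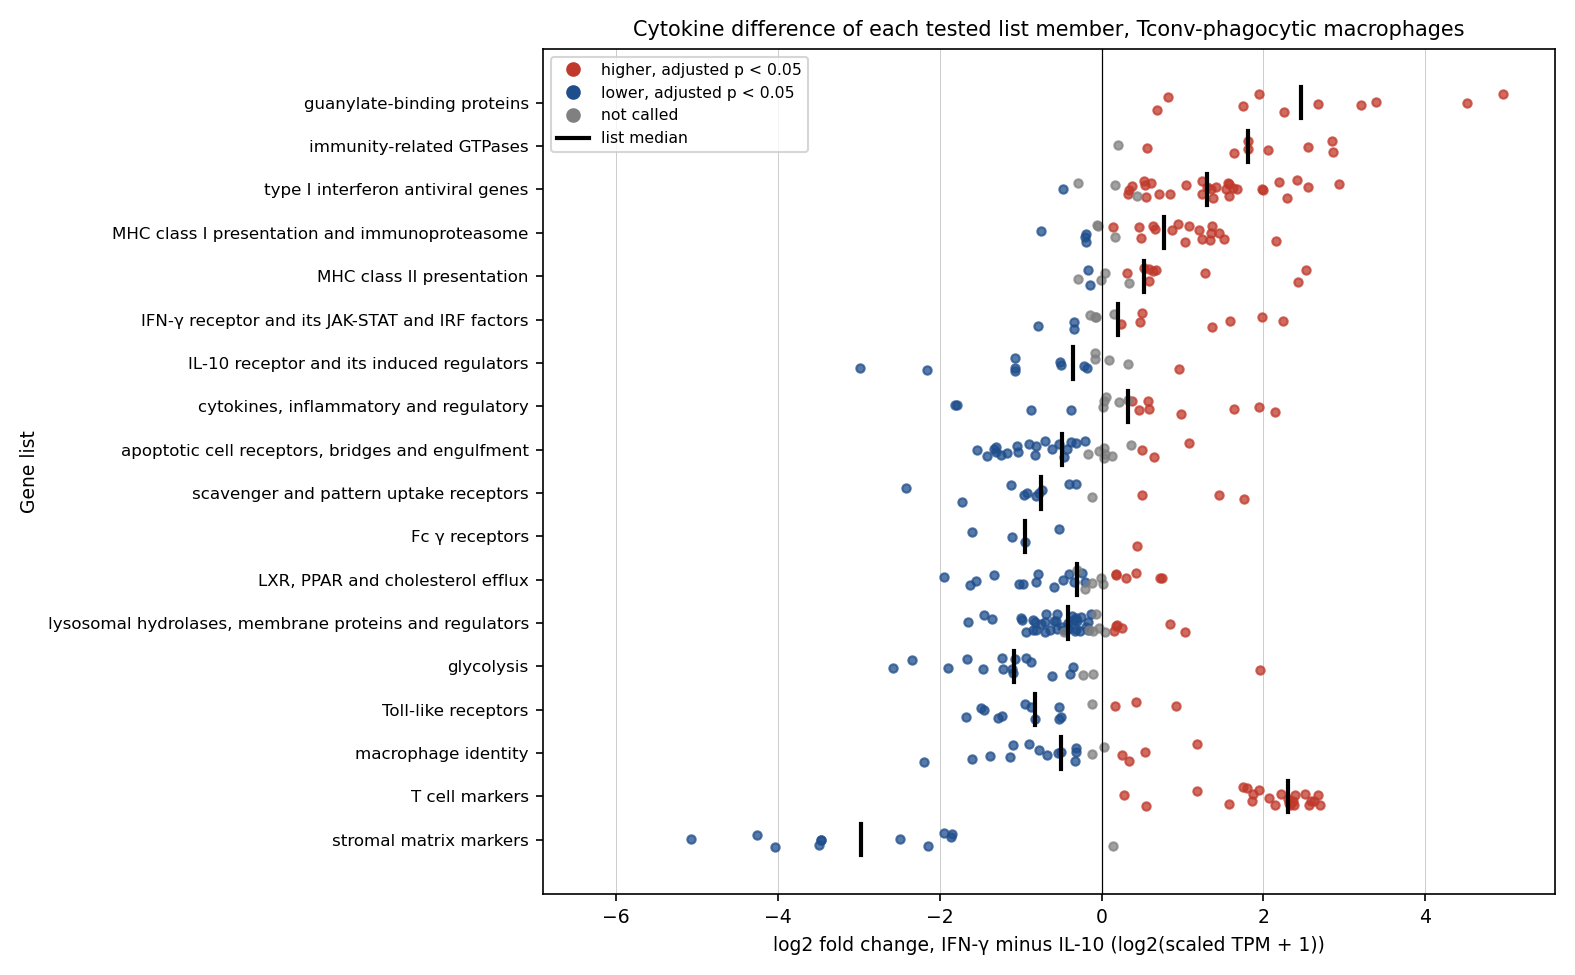
Log2 fold change (IFN-γ minus IL-10) of each tested member of 18 gene lists in Tconv-phagocytic macrophages, red for called higher, blue for called lower, grey for not called, with a bar at the list median. The guanylate-binding proteins, with a median of 2.46, lie to the right and the stromal matrix markers, with a median of -2.98, to the left.

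The named-gene rule picked the largest falls and rises over all genes. Saa3 was at 118, 108, 138 and 129 TPM under IFN-γ and 3424, 3297, 3388 and 3368 TPM under IL-10, a difference of -4.59 ± 0.062 (limma adjusted p = 2.90e-10). F13a1, the transglutaminase subunit of coagulation that tissue-type macrophages express, was at 0.47, 0.55, 0.29 and 0.61 TPM under IFN-γ and 55.05, 50.5, 56.7 and 51.8 TPM under IL-10, a difference of -5.09 ± 0.11 (limma adjusted p = 3.14e-09). Each IFN-γ library was below 1 TPM for F13a1, so its fold change depends on the added 1 TPM. F13a1 passed the filter of 1 TPM in 4 libraries through the IL-10 group alone, so a lower value under IFN-γ was fixed in advance. Other genes that the rule picked on this side were Ccn2, a matricellular growth factor, Nxpe5 and the endothelin receptor Ednrb, lower by 4.05, 3.67 and 3.59 (limma adjusted p = 5.27e-09, 2.90e-08 and 2.28e-08). Ccn2 is among the TGF-β and YAP target genes, a list chosen after values were seen, in which 10 of 16 were called lower and 4 higher. Mmp14, a membrane-bound matrix metalloproteinase, was lower by 2.56 (limma adjusted p = 2.90e-08).

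Matrix genes that macrophages are not known for lay on the same side. Of the stromal markers listed, 12 of 16 were tested, and 11 were called lower under IFN-γ and none higher (median -2.98). Some, as Col1a1 below, reached the filter of 1 TPM in 4 libraries through the IL-10 group alone. For such genes a lower value under IFN-γ was fixed in advance, so the count and the median partly reflect the filter. Col1a1, a fibrillar collagen chain, was at 0.43, 0.95, 0.70 and 0.65 TPM under IFN-γ and 33.7, 34.1, 33.05 and 35.00 TPM under IL-10, a difference of -4.27 ± 0.12 (limma adjusted p = 1.24e-08). The smooth-muscle actin Acta2 was at 0, 0.47, 1.46 and 0.58 TPM under IFN-γ and 56.2, 55.7, 55.7 and 53.8 TPM under IL-10, a difference of -5.08 ± 0.24 (limma adjusted p = 1.86e-07). Col1a2 and the collagen-binding Sparc were lower by 4.04 and 3.49, and the proteoglycan Dcn differed by 0.14 ± 0.25 (limma adjusted p = 4.75e-08, 1.12e-06 and 0.649). The summed TPM of the defining stromal markers was 1.90 to 5.15 under IFN-γ and 69.8 to 77.3 under IL-10. It was 1.86 to 3.70 and 39.3 to 45.5 in non-phagocytic libraries, and 1.15 to 2.54 and 13 to 16.1 in Treg-phagocytic libraries. Whether stromal cells in the sort have a part in these differences was not tested.

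Transcripts of T cells, which the macrophages had eaten, were higher under IFN-γ without exception in the list: 25 of 25 were called higher (median 2.31). Trac, the constant region of the T cell receptor α chain, was at 73.5, 53.96, 81.5 and 79.1 TPM under IFN-γ and 12.6, 13.97, 13.9 and 12.3 TPM under IL-10, a difference of 2.52 ± 0.12 (limma adjusted p = 2.48e-07), with no overlap. Cd3e, a signalling chain of that receptor, and Cd4 differed by 2.22 ± 0.17 and 1.80 ± 0.096 (limma adjusted p = 4.83e-06 and 4.36e-07). The β chain constant region Trbc2 differed by 2.69 ± 0.13 (limma adjusted p = 1.94e-07). Foxp3, the factor of regulatory T cells, differed by 1.95 ± 0.17 (limma adjusted p = 8.84e-06), although these macrophages are labelled as having taken up conventional T cells, and 10 of 11 Treg markers were called higher. The IL-2 receptor chain Il2ra and the checkpoint receptor Ctla4 differed by 2.19 ± 0.18 and 2.14 ± 0.19 (limma adjusted p = 6.50e-06 and 9.71e-06). The summed TPM of the defining T cell markers was 480 to 635 under IFN-γ and 87.8 to 127 under IL-10. In non-phagocytic macrophages, which carried no dye, it was 388 to 708 and 63.8 to 79.5. In Treg-phagocytic macrophages it was 470 to 757 and 152 to 177, and the summed Treg markers, 31.3 to 44.5 TPM under IFN-γ in Tconv-phagocytic libraries, were 26.4 to 43.02 there. Under IL-10 the summed Treg markers were 6.64 to 8.15 TPM after Tconv uptake and 9.09 to 13.8 TPM after Treg uptake, without overlap. The part of T cell RNA in the other differences, among them those of cytokines and chemokines that T cells also express, was not tested.

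**Figure D4:**
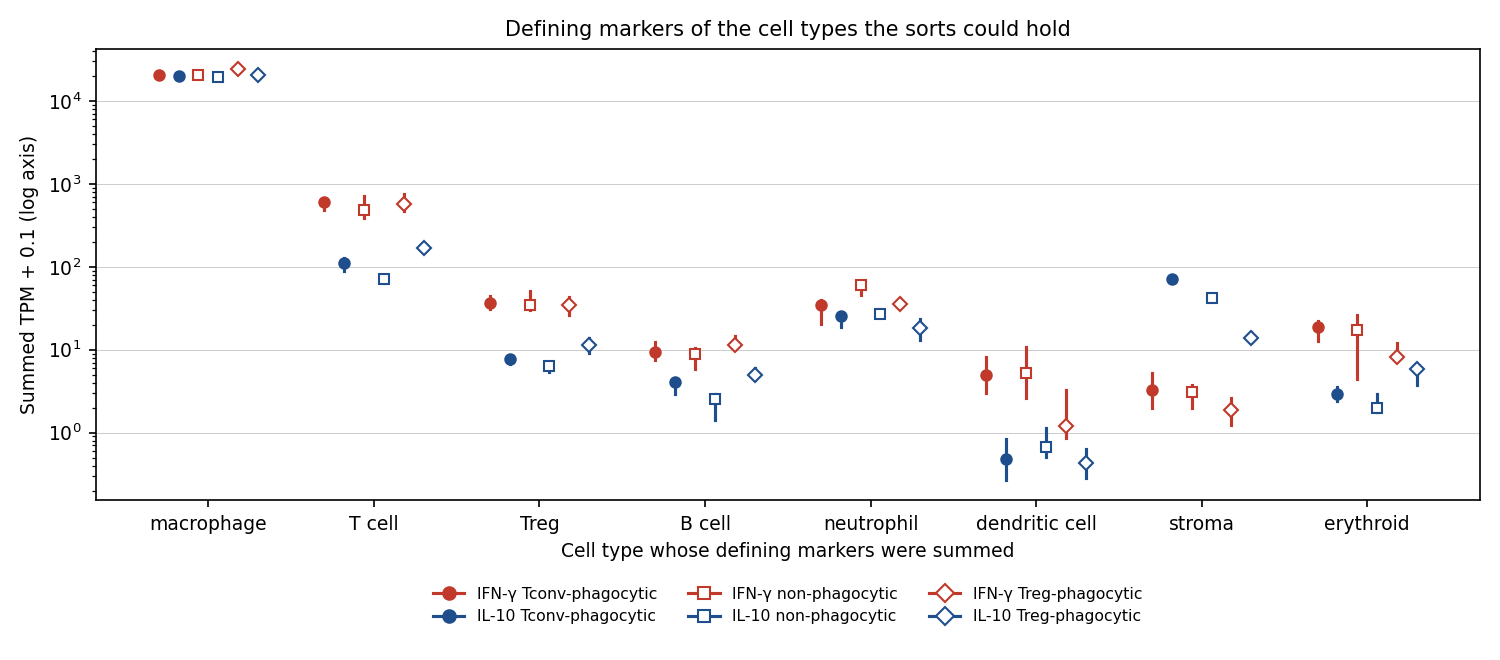
Summed TPM (plus 0.1, log axis) of the defining markers of 8 cell types in 6 groups, with the point at the median of 4 libraries and the line from the lowest to the highest, filled for Tconv-phagocytic and open for the other uptake classes. Macrophage markers lie within 19150 to 24144 TPM in all groups, T cell markers lie higher under IFN-γ and stromal markers higher under IL-10 in each uptake class.

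Defining markers of other blood cells were low. Summed B cell markers were 7.52 to 12.4 TPM under IFN-γ and 2.81 to 4.48 under IL-10, those of dendritic cells 2.92 to 8.13 and 0.17 to 0.74 and those of erythroid cells 12.8 to 22.04 and 2.31 to 3.41. The defining neutrophil markers overlapped, at 20.2 to 40.0 and 18.6 to 26.8. The longer neutrophil list of 14 genes did not, at 73.1 to 89.5 and 136 to 140 TPM. Of its 7 tested genes 1 was called higher and 3 lower, where 56.1% of all genes were called. The B cell list of 12 genes summed to 92.6 to 127 and 31.1 to 43.1 TPM. The dendritic cell list of 12 genes summed to 1375 to 1413 and 1199 to 1226 TPM. The defining marker Ly6g of neutrophils was at 0 in 4 and 3 libraries and Flt3 of dendritic cells in 4 and 2, under IFN-γ and IL-10 in that order. Ccr7, the lymph-node homing receptor of mature dendritic cells and naive T cells, differed by 1.86 ± 0.23 (limma adjusted p = 1.04e-04).

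Division genes were higher under IFN-γ in 12 of 28 cases and lower in 2 (median 0.45). The mitotic cyclin Ccnb1, the topoisomerase Top2a and the replication helicase subunit Mcm5 differed by 1.44 ± 0.18, 0.97 ± 0.16 and 1.14 ± 0.19 (limma adjusted p = 9.00e-05, 6.42e-04 and 6.03e-04). Mki67, the marker of cycling cells, was at 3.21, 3.22, 3.18 and 3.46 TPM under IFN-γ and 3.39, 3.89, 4.01 and 3.84 TPM under IL-10, with a difference of -0.025 ± 0.12 (limma adjusted p = 0.865). T cell markers moved in the same direction as the division genes, and their part was not tested. Of 15 immediate early genes 6 were called higher and 3 lower (median 0.17, largest rise 1.75), where 56.1% of all genes were called. Egr1 and Fos, transcription factors of the first response to a stimulus, were among the 3 lower, by 1.37 and 0.46 (limma adjusted p = 7.61e-06 and 7.43e-04).

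Several of the largest rises under IFN-γ were of non-coding and stress transcripts. Zmiz1os1, an antisense long non-coding RNA, was at 17.8, 30.9, 31.6 and 26.1 TPM under IFN-γ and 0.86, 0.87, 1.10 and 0.45 TPM under IL-10, a difference of 4.03 ± 0.19 (limma adjusted p = 1.95e-07). The mitochondrial ribosomal RNA mt-Rnr1 was at 8842, 14281, 11386 and 11304 TPM under IFN-γ and 282, 299, 297 and 269 TPM under IL-10, a difference of 5.47 ± 0.11 (limma adjusted p = 2.45e-09), and mt-Rnr2 differed by 4.68 ± 0.12 (limma adjusted p = 9.15e-09). The heat-shock gene Hspa1b was at 508, 789, 707 and 640.4 TPM under IFN-γ and 10.8, 16.01, 13.5 and 13.3 TPM under IL-10, a difference of 5.69 ± 0.14 (limma adjusted p = 6.38e-09), and its near-identical neighbour Hspa1a differed by 5.40 ± 0.14. Reads of these heat-shock genes can be split between the copies, so their separate values are uncertain. Of 27 heat-shock genes, a list chosen after values were seen, 12 were called higher and 8 lower.

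The nuclear and RNA polymerase III RNAs, also listed after values were seen, were called higher in 8 of 9 cases (median 2.02). Rn7sk, which holds the elongation factor P-TEFb, differed by 3.67 ± 0.16 and the nuclear RNA Malat1 by 1.02 ± 0.093, and Neat1, the scaffold of paraspeckles, was the one called lower, by 0.35 (limma adjusted p = 1.26e-07, 1.31e-05 and 0.00904). Without the IFN-γ library BV421 replicate 1, Neat1 was at -0.23, and without scaling at -0.53. Several of these RNAs lack a poly(A) tail, and so do most histone transcripts, of which 18 of 70 were tested and 9 called higher. The mitochondrial ribosomal RNAs summed to 14974 to 24434 TPM under IFN-γ and 599 to 668 under IL-10, and to 17708 to 20012 and 545 to 598 in non-phagocytic libraries. Relative depth also moved with the cytokine. It was 22.3% to 25.9% of that of the deepest of the 8 libraries under IFN-γ and 82.2% to 100% under IL-10, and 15662 to 16295 genes against 18179 to 18457 had a value above 0. Mitochondrial transcripts of all kinds made up 7.69% to 8.60% of TPM under IFN-γ and 4.66% to 5.20% under IL-10, and the median SD of a gene over 4 libraries was 0.214 and 0.0979 on the log2 scale. The part of depth and of RNA selection in these differences was not tested.

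To ask whether the cytokine difference was another in macrophages that had eaten a Tconv cell, the difference in Tconv-phagocytic libraries was set against that in non-phagocytic libraries as an interaction in limma. The same 8 Tconv-phagocytic libraries also enter the comparison with Treg-phagocytic libraries below, so the sets are not independent. Non-phagocytic libraries carry no dye, so no dye term was possible. Under IFN-γ their summed T cell markers, 388 to 708 TPM, spanned those of Tconv-phagocytic libraries, 480 to 635 TPM. Under IL-10 the ranges were 63.8 to 79.5 and 87.8 to 127 TPM. The part of T cell RNA in this interaction was not tested. Of 13075 genes tested, 33 had a larger difference (more towards IFN-γ) in Tconv-phagocytic macrophages (0.252%). A smaller one (more towards IL-10) was called for 205 (1.57%). Larger and smaller refer to the signed difference. In a gene lower under IFN-γ in both uptake classes, a smaller difference is therefore a wider gap between the cytokines. Without scaling 78 were larger and 43 smaller, so the direction of small differences depends on the scaling. Without any one of the 4 IL-10 Tconv-phagocytic libraries, 142 to 149 were called in all, against 238 with them.

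Mmp12, the macrophage elastase, was one of those towards IFN-γ. In Tconv-phagocytic macrophages it was at 190.3, 152, 160.4 and 148 TPM under IFN-γ and 71.7, 68.8, 70.5 and 67.8 TPM under IL-10, a difference of 1.38 ± 0.082, with no overlap. In non-phagocytic macrophages it was at 181 ± 10.2 TPM under IFN-γ and 218 ± 7.22 TPM under IL-10 (SD, n = 4), and the differences differed by 1.34 ± 0.099 (limma adjusted p = 3.19e-06). The other genes picked on this side were Ramp3, a partner of the calcitonin-like receptor, Rassf7, a Ras-association protein, the ubiquitin ligase relative Unkl and the glycine-cleavage enzyme Amt. The cytokine differences of these 4 genes were 2.47, 0.92, 1.13 and -0.19 with uptake and 1.11, -0.24, 0.008 and -1.17 without, and the limma adjusted p-values of the interaction were 0.0234, 0.0259, 0.00812 and 0.024.

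Axl lay on opposite sides with and without uptake. Axl, the phosphatidylserine-receptor kinase, was higher under IFN-γ in non-phagocytic macrophages, at 45.2 ± 7.001 TPM under IFN-γ and 26.2 ± 3.71 TPM under IL-10 (SD, n = 4), and lower under IFN-γ in Tconv-phagocytic ones. The difference between these was -1.43 ± 0.16 (limma adjusted p = 2.51e-04). Vcam1, an adhesion molecule for α4 integrins, had a cytokine difference of 1.67 without uptake and of -0.62 with it, the latter not called (limma adjusted p = 0.0737), and the interaction was -2.29 ± 0.34 (limma adjusted p = 0.00247). The difference with uptake was called lower without scaling (-0.78, limma adjusted p = 0.0307), with the correction for GC content and length (-0.82, limma adjusted p = 0.0233), in a model of all 28 libraries (limma adjusted p = 0.0119) and without the IFN-γ library Ax647 replicate 2 (limma adjusted p = 0.0298).

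Several class II genes differed less between cytokines with uptake than without. Of 15, 6 had a smaller difference in Tconv-phagocytic than in non-phagocytic macrophages and none a larger one, or 4 and none without scaling. H2-Ab1 differed between cytokines by 0.67 with uptake and 1.39 without, H2-Aa by 0.53 and 1.38, and Cd74 by -0.14 and 0.62. The interactions were -0.71 ± 0.085, -0.85 ± 0.065 and -0.76 ± 0.061 (limma adjusted p = 4.08e-04, 3.64e-06 and 4.70e-06). Aif1 also had a smaller difference, with an interaction of -0.85 ± 0.16 (limma adjusted p = 0.0101). Of 11 guanylate-binding proteins tested in this interaction, none was called.

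On the IL-10 side, some differences were wider with uptake than without. Ppbp was lower under IFN-γ by 4.74 with uptake, with an interaction of -1.96 ± 0.24. For Sparc the interaction was -2.35 ± 0.33, for Col1a1 -1.08 ± 0.17, for Col1a2 -1.05 ± 0.22, for F13a1 -1.24 ± 0.20 and for Apoe -0.55 ± 0.04. The limma adjusted p-values were 5.71e-04, 0.00173, 0.00314, 0.02, 0.00325 and 3.19e-06. The proteoglycan Bgn was lower by 3.46 with uptake, and its interaction of -1.73 ± 0.41 (limma adjusted p = 0.0425) was not called without scaling (limma adjusted p = 0.0703). Stromal markers as a list had 5 of 12 members with a smaller, that is more IL-10-sided, difference (3 without scaling), and summed stromal TPM under IL-10 was higher with uptake, as given above. For lysosomal genes the count was 9 of 49 more IL-10-sided and 1 more IFN-γ-sided, but without scaling 1 and 1.

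The next interaction set the cytokine difference after Tconv uptake against that after Treg uptake. Against Treg-phagocytic libraries, 1053 of 12918 genes had a larger difference in Tconv-phagocytic ones (8.15%) and 763 a smaller one (5.91%), or 1427 and 340 without scaling. Several interferon-induced genes lay further apart between the cytokines after uptake of Tconv cells than after uptake of Treg cells. Of 10 guanylate-binding proteins 6 had a larger difference and none a smaller one, of 9 immunity-related GTPases 4 and none, of 24 class I genes 9 and none, and of 33 antiviral genes 8 and 1. Against non-phagocytic libraries no gene of these lists was called with a larger difference. Under IFN-γ the guanylate-binding proteins summed to 316 to 501 TPM after Tconv uptake and 398 to 466 TPM without uptake. After Treg uptake they summed to 126 to 148 TPM.

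Samhd1 shows the size of the gap between Tconv and Treg uptake. Its cytokine difference was 2.93 after Tconv and 0.66 after Treg uptake, where it was at 262 ± 41.2 TPM under IFN-γ and 203 ± 10.7 TPM under IL-10 (SD, n = 4), and the differences differed by 2.29 ± 0.18 (limma adjusted p = 3.13e-06). The interaction was 2.56 ± 0.27 for Gbp4, 1.92 ± 0.22 for Gbp2, 1.84 ± 0.18 for Mndal, 1.40 ± 0.19 for Nlrc5, 1.42 ± 0.29 for H2-Oa and 1.09 ± 0.15 for Irf1. The limma adjusted p-values were 2.61e-05, 4.15e-05, 1.46e-05, 1.34e-04, 0.00334 and 1.76e-04. The summed T cell markers overlapped between these uptake classes under IFN-γ, as given above. Under IL-10 they did not, at 87.8 to 127 TPM after Tconv and 152 to 177 TPM after Treg uptake. The part of T cell RNA in these interactions was not tested.

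The genes picked for the largest interaction included the histone gene Hist1h2bg, Hspa1b, Hspa1a and Zmiz1os1, with interactions of 3.07 ± 0.36, 2.80 ± 0.31, 2.78 ± 0.32 and 2.51 ± 0.41 (limma adjusted p = 5.68e-05, 3.17e-05, 4.15e-05 and 6.62e-04). Hist1h2bg shares reads with near copies and is uncertain. The mitochondrial ribosomal RNAs mt-Rnr1 and mt-Rnr2 moved with them, by 1.88 ± 0.29 and 1.72 ± 0.28 (limma adjusted p = 4.58e-04 and 6.73e-04), and summed to 3841 to 8987 TPM under IFN-γ after Treg uptake, below every IFN-γ Tconv-phagocytic library. Their part in the interferon-gene result was not tested.

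The cytokine difference was more IL-10-sided after Tconv than after Treg uptake for 8 of 12 stromal markers and 12 of 20 macrophage identity genes. It was so for 15 of 49 lysosomal genes as well. In the same order, none, 1 and 2 had a more IFN-γ-sided difference. Without scaling the counts of more IL-10-sided differences were 8, 6 and 8. The interaction was -2.88 ± 0.41 for Sparc, -2.27 ± 0.40 for Acta2 and -1.89 ± 0.18 for Col1a1 (limma adjusted p = 1.94e-04, 0.00121 and 1.46e-05). Rcn3, a chaperone of collagen secretion, was lower by 1.39 after Tconv uptake and had a cytokine difference of 0.55 after Treg uptake, with an interaction of -1.92 ± 0.47 (limma adjusted p = 0.0113). Mertk, not called after Tconv uptake, had a cytokine difference of -0.68 after Treg uptake (interaction 0.72 ± 0.13, limma adjusted p = 0.00167).

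**Figure D5:**
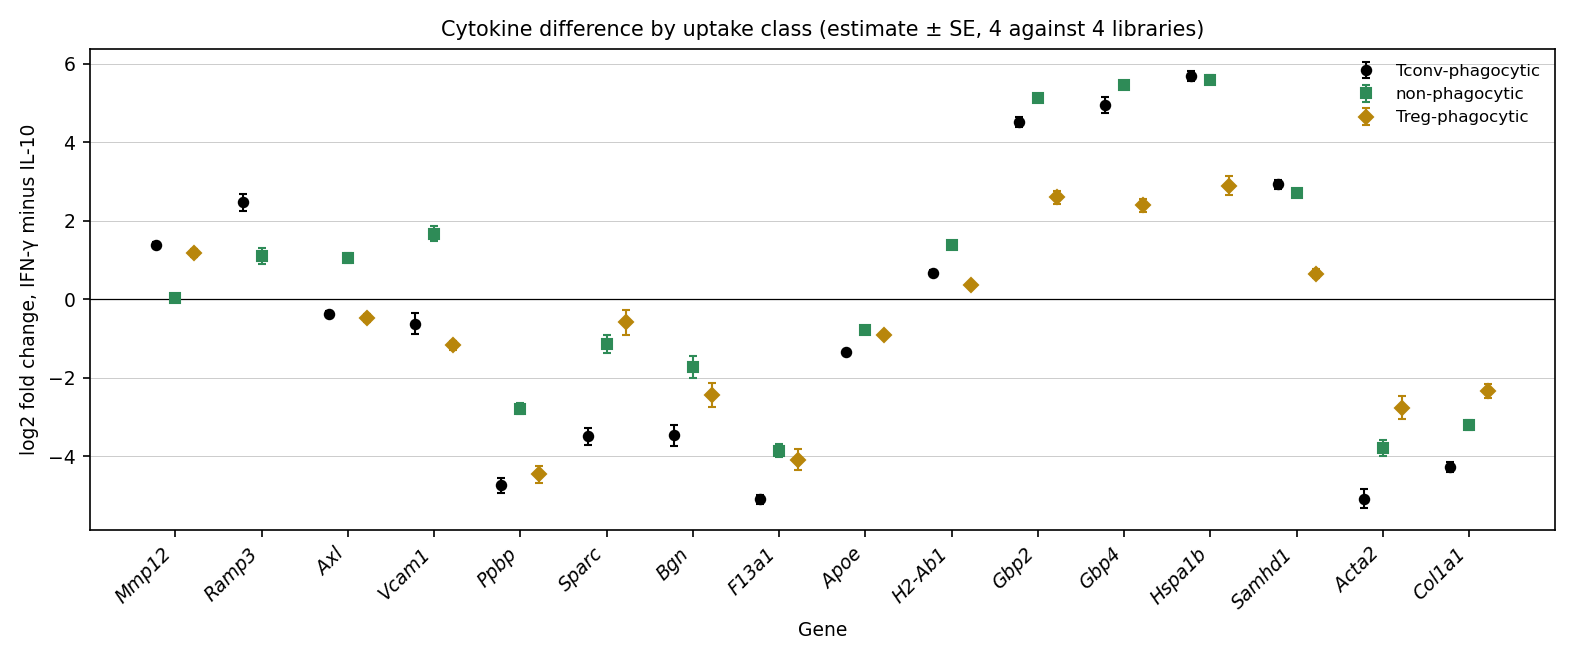
Log2 fold change (IFN-γ minus IL-10) with its standard error for 16 genes in Tconv-phagocytic (black circles), non-phagocytic (green squares) and Treg-phagocytic (gold diamonds) macrophages, 4 libraries against 4 at each point. Axl lies above 0 without uptake and below 0 with either kind of uptake, and Gbp2, Gbp4, Hspa1b and Samhd1 lie lower after uptake of Treg cells.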

How the data were processed

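RNA of 28 mouse macrophage libraries was selected by poly(A) and sequenced from strand-specific libraries (NEBNext Ultra II Directional kit, per the labels' protocols). The authors deposited TPM per Ensembl gene, with STAR, RSEM and the build mm10 named in the submitters' processing notes. Versions and annotation are not given in the sources used here. Of 55487 gene IDs, 55141 had a symbol in GENCODE vM21.

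Only the 4 IFN-γ and 4 IL-10 Tconv-phagocytic libraries entered the main comparison, with both dyes pooled and no covariate. Each library was divided by an unweighted trimmed-mean scaling factor (30% of ratios and 5% of levels trimmed). Genes that reached 1 TPM in 4 or more libraries were tested by limma 3.58.1 (R 4.3.3, eBayes with trend) on log2(scaled TPM + 1), with Benjamini-Hochberg adjustment over all genes. The 2 interactions were fitted the same way on 16 libraries each. The pipeline was tested on simulated data. TPM keeps no counts. The relative depth was read from 14568 single-transcript genes of 500 to 2000 nt, where 90.1% to 92.8% of low values lay within 0.15 reads of a whole number.

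Named genes are the 10 largest rises and falls with separate groups and at least 5 TPM, anchor genes of 36 lists, the extreme members of each list and the 5 largest interactions each way. Some genes so picked are not reported here, not every other one is described, and others were named from the lists after their values were seen. Members, lists and tests were chosen with earlier results of these data known, and 8 lists after values were seen: heat shock, TGF-β and YAP targets, nuclear RNAs, mitochondrial ribosomal and protein-coding RNAs, HIN-200, histones and ribosomal proteins. Their counts not given in the report are 6 higher and 2 lower of 13 mitochondrial protein-coding genes (median under scaling and without it of opposite sign) and 72 higher and 2 lower of 80 ribosomal protein genes. Alternatives were other scalings, pseudocounts and filters, variance weights, all 28 libraries, single dyes, a dye term, a replicate block, each library left out and, added later, a correction for GC content and length. No 2 of the 8 libraries had identical values.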

Additional observations from a re-analysis of the deposited data

Results flagged for a closer look

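A library that stood apart from the other 3 of its group was looked for in 348 groups of 4, and 9 were found, where chance alone gives about 1 in 20 groups. The IFN-γ library BV421 replicate 2 was low for Pf4 (124 TPM, others 157 to 162), Abca1 (10.3 TPM, others 12.99 to 13.5) and Itgam (75.2 TPM, others 81.0 to 82.2) and high in the mitochondrial share of TPM (8.60%, others 7.69% to 7.82%). The IL-10 library BV421 replicate 2 was high for Csf1 (16.3 TPM, others 13.9 to 14.2), Isg15 (33.3 TPM, others 28.1 to 28.8) and Amt (8.17 TPM, others 6.52 to 6.68). The IL-10 library Ax647 replicate 2 was high for Nlrc5 (33.4 TPM, others 26.3 to 27.0), and the IFN-γ library Ax647 replicate 2 was high for Mki67 (3.46 TPM, others 3.18 to 3.22).

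For 37 named genes the cytokine difference (log2, IFN-γ minus IL-10) in Tconv-phagocytic libraries differed from that in non-phagocytic libraries by the interaction term of limma, and the size of that interaction is given in brackets, positive where the difference lay further towards IFN-γ after uptake of Tconv cells. Among signalling and regulator genes, this was Sbno2 (0.40). Among antigen presentation and costimulation, these were H2-Aa (-0.85), H2-Ab1 (-0.71), H2-DMa (-0.42), Cd74 (-0.76) and B2m (-0.30). Among chemokines, cytokines and growth factors, these were Ccl5 (-0.61), Pf4 (-0.54) and Ppbp (-1.96). Among uptake receptors, bridging proteins and complement, these were Axl (-1.43), C1qa (-0.32), C1qb (-0.33), Ucp2 (-0.28), Thbs1 (-0.29) and Fcer1g (-0.26). Among lipid, lysosome and glycolysis genes, these were Apoe (-0.55), Pltp (-0.23), Npc2 (-0.15), Lpl (0.37), Lgmn (-0.26), Lamp1 (-0.23) and Ldha (-0.23). Among macrophage, innate sensing and adhesion genes, these were Aif1 (-0.85), Ncf1 (0.28) and Vcam1 (-2.29). Among matrix and coagulation genes, these were Col1a1 (-1.08), Col1a2 (-1.05), Sparc (-2.35), Bgn (-1.73), F13a1 (-1.24), Mmp12 (1.34) and Mmp14 (-0.63). Among non-coding, stress and other genes, these were Malat1 (0.45), Ramp3 (1.37), Rassf7 (1.16), Unkl (1.12) and Amt (0.98). Without scaling, 14 of these were not called and none changed sign: Bgn, C1qa, Ccl5, Fcer1g, H2-DMa, Lamp1, Ldha, Lgmn, Mmp14, Npc2, Pf4, Pltp, Thbs1 and Ucp2.

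For 76 named genes the cytokine difference (log2, IFN-γ minus IL-10) in Tconv-phagocytic libraries differed from that in Treg-phagocytic libraries by the interaction term of limma, and the size of that interaction is given in brackets, positive where the difference lay further towards IFN-γ after uptake of Tconv cells. Among signalling and regulator genes, these were Irf1 (1.09), Stat3 (0.77) and Sbno2 (0.39). Among interferon-induced GTPases and antiviral genes, these were Gbp2 (1.92), Gbp4 (2.56), Iigp1 (1.27), Irgm1 (1.01), Igtp (0.70), Samhd1 (2.29), Usp18 (1.23), Ifit2 (0.45), Mndal (1.84), Aim2 (0.98) and Ly6a (1.13). Among antigen presentation and costimulation, these were Ciita (1.10), H2-DMa (0.46), H2-Oa (1.42), H2-K1 (0.86), Tap1 (0.47), Psmb9 (0.51), Nlrc5 (1.40), Cd274 (0.51), Vsir (-0.35) and Nectin2 (-0.70). Among chemokines, cytokines and growth factors, these were Ccl5 (0.78), Pf4 (-0.65), Igf1 (-0.22) and Csf1 (-1.34). Among uptake receptors, bridging proteins and complement, these were Mertk (0.72), C1qa (-0.44), C1qb (-0.26), C1qc (-0.44), Itgb5 (-0.45), Ucp2 (-0.27), Thbs1 (-0.57), Cd5l (-0.46), Mrc1 (-0.40), Fcgr3 (-0.24), C3 (0.45) and C3ar1 (-0.47). Among lipid, lysosome and glycolysis genes, these were Apoe (-0.41), Pltp (-0.51), Npc2 (0.17), Ctsb (-0.23), Ctsd (-0.27), Lgmn (-0.35), Lamp1 (-0.18), Mcoln1 (1.01), Slc2a1 (-0.58), Pkm (-0.26), Ldha (-0.36), Hk3 (1.32) and Hif1a (0.61). Among macrophage, innate sensing and adhesion genes, these were Csf1r (-0.39), Itgam (-0.46), Adgre1 (-0.30), Spi1 (-0.24), Gsdmd (0.38), Ncf1 (0.55) and Fos (-0.34). Among matrix and coagulation genes, these were Col1a1 (-1.89), Col1a2 (-1.72), Acta2 (-2.27), Sparc (-2.88), Ccn2 (-1.36), F13a1 (-0.96) and Rcn3 (-1.92). Among non-coding, stress and other genes, these were mt-Rnr1 (1.88), mt-Rnr2 (1.72), Malat1 (1.38), Neat1 (1.07), Zmiz1os1 (2.51), Hspa1a (2.78), Hspa1b (2.80), Hist1h2bg (3.07) and Ramp3 (1.35). Without scaling, 11 of these were not called and none changed sign: Adgre1, Ctsb, F13a1, Fcgr3, Fos, Igf1, Itgb5, Lamp1, Pkm, Spi1 and Ucp2.

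The Tconv-phagocytic libraries enter both sets of interactions, so a gene named in both is not 2 independent results. The ribosomal protein genes were called smaller in 40 of 80 cases against non-phagocytic and in 74 of 81 against Treg-phagocytic libraries, but without scaling in 3 and in 44.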

How the results depend on the processing

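The main count of 6812 called genes stayed between 5710 (filter of 5 TPM) and 7270 (no filter) under the other scalings, filters, pseudocounts, weights and models, and between 5860 and 6751 without any 1 library. BV421 libraries alone gave 4045 (2210 higher and 1835 lower), with fewer samples. A log2 fold change of at least 1 in addition left 1671 (1100 higher and 571 lower). The direction of calls depends on the scaling. Scaling moved the median of all genes from -0.18 to -0.023, and the split of 3458 higher and 3354 lower became 2605 and 4603 without it and 3083 and 3488 with the correction for GC content and length, which was chosen after seeing the data.

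The 238 interactions against non-phagocytic libraries became 121 without scaling (78 larger and 43 smaller), 136 with a variance weight per group, 13 in BV421 and 78 in Ax647 libraries alone, 152 with the GC and length correction and 142 to 330 without any 1 library. Leaving out any one of the 4 IL-10 Tconv-phagocytic libraries gave 142 to 149. The 1816 against Treg-phagocytic libraries became 2 in BV421 and 288 in Ax647 libraries alone and 1396 to 2090 without any 1 library. The single-dye fits hold fewer samples, and the cause of their lower counts was not tested. Scaling split the 1816 into 1053 larger and 763 smaller, and without it the counts were 1427 and 340. Of 113 named interactions, 25 were not called without scaling. The interaction against non-phagocytic libraries has no dye term or block, because those libraries carry no dye. A dye term gave 1738 against Treg-phagocytic libraries. Title and library name give different dyes for all 8 Treg-phagocytic libraries, and the fits there by dye, by dye term and by block follow the title.

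As for pairing, the deviations of libraries with the same dye and number had correlations of -0.0189, -0.0357, 0.0132 and -0.0465. Those of libraries with another dye or number were -0.0344 to 0.0521. Whether libraries with the same number came from one culture or animal was not tested. A replicate block gave 6444 calls (3331 higher and 3113 lower) and, against Treg-phagocytic libraries, 1685. Among the named genes it changed the call of Ciita alone (limma adjusted p = 0.06).

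Of 160 named genes called, 32 shrank by over 1.5 times with 5 TPM added in place of 1, such as Cxcl9 (2.42) and F13a1 (-3.33), because that constant outweighs low values. Acod1 was at 0.40 with 5 TPM and at 1.92 with 0.1 TPM added. Of the named genes called, 11 moved as far without scaling and 9 under the GC and length correction. Fits of 1 dye, 2 libraries against 2, lost the calls of Ciita, Cd74, Rassf7, Neat1, Tlr7, Nlrp3, Adgre1, Top2a, Mcm5 and Fos (BV421) and of Ciita, Axl, Nlrp3, Casp1 and Spi1 (Ax647). Lists whose median changed sign without scaling were chemokines, checkpoint molecules, cholesterol synthesis, inflammasome, immediate early, heat-shock and mitochondrial protein-coding genes. The IFN-γ libraries are the shallower ones (22.3% to 25.9% of the deepest library), which limits what can be said of genes near 1 TPM.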

Other observations

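By annotated type, 80 of 129 tested loci of unconfirmed status (TEC) were called higher under IFN-γ and 8 lower. Of 220 antisense genes 69 were higher and 19 lower, and of 161 lincRNAs 56 and 18. Protein-coding genes were divided almost evenly, with 3003 of 10917 higher and 3250 lower. The share of genes called grew with their level. It was 42.2% below a mean of 5 TPM, 51.4% from 5 to 20 TPM, 64.3% from 20 to 100 TPM and 81.1% above 100 TPM.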
